A study of Rattus norvegicus with 38 samples.

Results

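The control of vessel tone and of vessel growth was followed in the kidneys of 38 rats through 7 genes: Nos3, Edn1, Agt, Agtr1a, Vegfa, Flt1 and Acta2. They were chosen by name, as vascular genes that bear on blockade of nitric oxide synthesis, with earlier results of these data known. All 7 were found by Ensembl identifier among the 30207 genes of the table. Kidney RNA was sequenced from the 3′ ends of transcripts after 7 weeks of treatment in 4 groups. The combination group (10 rats) received anti-Fx1A at 2.0 mL/kg and L-NAME at 20 mg/kg per day, the L-NAME group (10 rats) L-NAME at 20 mg/kg per day, the anti-Fx1A group (10 rats) anti-Fx1A at 2.5 mL/kg, and the vehicle group (8 rats) vehicle. Anti-Fx1A is an antiserum raised against a brush border fraction of the proximal tubule, used in rats to induce Heymann nephritis. L-NAME is an arginine analogue that blocks the nitric oxide synthases. The antiserum dose was lower in the combination, so its comparisons with anti-Fx1A alone hold a dose difference as well. The labels number the kidney samples 1 to 38 without saying that each is a separate rat; each was taken as 1 animal, and p-values measure only the spread between these samples. The sources used here give neither strain, sex and age nor the route of dosing.

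Endothelial nitric oxide synthase makes nitric oxide from arginine in the endothelium, and the gas relaxes the smooth muscle of the vessel wall. Endothelin-1 and angiotensin II act the other way and constrict it, and in the kidney angiotensin II is formed from angiotensinogen by renin and the angiotensin converting enzyme. Vascular endothelial growth factor A from podocytes and tubules keeps the glomerular and peritubular endothelium intact, and part of its action runs through nitric oxide.

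The libraries held between 4120902 and 7728848 reads, and mean depth did not differ detectably between any groups (lowest p 0.205 by exact permutation, two-sided). The number of genes with a read was larger in each treated group, averaging 16970 in the combination, 16950 with L-NAME and 16820 with anti-Fx1A, against 16550 with vehicle (exact permutation, adjusted p = 0.00617, 0.00617 and 0.0241), and its part in the results was not tested. Values below are normalised reads, that is reads after the authors' library-size scaling, or values of the deposited log2 scale, and fold changes are differences on that log2 scale. The log2 scale is compressed at low counts, so it understates changes of genes with few reads. Among all libraries, vehicle animal 1, L-NAME animal 25 and anti-Fx1A animal 10 stood apart: weights estimated from the spread of all genes tested were 0.279, 0.294 and 0.300 for them, and at least 0.568 for the others. L-NAME animal 25 was the lowest of its group for Agt, Agtr1a, Vegfa and Flt1 and the highest for Nos3. Anti-Fx1A animal 10 was the lowest of its group for Agtr1a and Vegfa and the highest for Edn1 and Acta2, and vehicle animal 1 was the highest of its group for Nos3 and Acta2. Library names are numbered group after group, so treatment cannot be told apart from anything that followed that numbering. Identifiers of cell type markers were not paired with names in the sources used here, so the kidney label was not checked against markers.

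Of the 7 genes, 6 passed the filter on low values and were tested among 12599 genes. Edn1 did not pass. Against vehicle, Nos3, Flt1 and Acta2 were higher and Agt was lower in the combination; Nos3 and Flt1 were higher and Agt was lower with L-NAME; no member was called with anti-Fx1A. Agtr1a was called in no comparison, and Vegfa had its highest mean with L-NAME and its lowest with the combination.

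Across the comparisons with vehicle, the members were called as follows. In the combination 3 of the 6 genes tested were higher, where 18.4% of all 12599 genes were, and 1 was lower, where 17.4% were. With L-NAME 2 were higher and 1 lower, where 7.91% and 6.22% of all genes were. With anti-Fx1A limma called 0 members, where 0.929% of all genes were higher and 0.175% lower, and voom on the reads called 0 as well. There 1 member, Nos3, had an unadjusted limma p under 0.05. The shares are for adjusted p, and the share of all genes at the unadjusted limit is not given here. The median absolute log2 fold change of the members tested was 0.48 in the combination, 0.27 with L-NAME and 0.15 with anti-Fx1A, and over all genes tested it was 0.21, 0.15 and 0.10. All 3 comparisons share the vehicle animals. With a change of at least 1.5-fold on the deposited log2 scale asked for as well, Nos3 and Agt were called in the combination, where 10.9% of all genes were, and Agt with L-NAME, where 2.97% were. Without the 3 libraries that stood apart, all of these calls were kept, with log2 fold changes in the combination of 0.64 for Nos3, 0.38 for Flt1, 0.65 for Acta2 and -1.14 for Agt, and with L-NAME of 0.50 for Nos3, 0.28 for Flt1 and -0.71 for Agt.

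Promoter sequences from RefSeq (GRCr8 assembly) were matched for 6 of the 7 members. Those of the 3 genes called higher in the combination against vehicle are shown. Each gives the 250 bases before the listed start, on the strand of the gene. Nos3 lies on chromosome 4, minus strand (chr4:11706582-11706831), Flt1 on chromosome 12, plus strand (chr12:12333180-12333429), and Acta2 on chromosome 1, minus strand (chr1:241172504-241172753). Capitals mark matches, on either strand, to any of 6 motifs.
Nos3: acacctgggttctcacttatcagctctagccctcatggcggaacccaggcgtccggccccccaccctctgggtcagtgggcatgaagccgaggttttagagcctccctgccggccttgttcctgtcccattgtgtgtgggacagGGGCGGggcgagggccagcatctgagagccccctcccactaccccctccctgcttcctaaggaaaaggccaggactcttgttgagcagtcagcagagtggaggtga
Flt1: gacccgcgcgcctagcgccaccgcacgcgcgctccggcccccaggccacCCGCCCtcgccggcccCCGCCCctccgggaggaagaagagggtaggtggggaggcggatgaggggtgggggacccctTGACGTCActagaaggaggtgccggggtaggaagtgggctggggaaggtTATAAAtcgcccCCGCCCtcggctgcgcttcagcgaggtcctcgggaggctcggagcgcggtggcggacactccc
Acta2: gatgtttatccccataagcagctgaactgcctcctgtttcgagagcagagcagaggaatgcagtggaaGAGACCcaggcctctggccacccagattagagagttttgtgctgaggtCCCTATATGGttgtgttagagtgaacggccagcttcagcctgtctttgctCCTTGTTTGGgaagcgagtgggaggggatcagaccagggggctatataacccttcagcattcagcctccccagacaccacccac

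The GC box (GGGCGG), which Sp1 binds, matched once in Nos3, between 106 and 101 bases before the start, and 3 times in Flt1. It was found in 30.5% of the 33469 promoters of that length. The cAMP response element (TGACGTCA) matched once in Flt1, from 124 to 117 bases before the start, and was found in 1.59% of promoters. Flt1 also held the letters of the TATA box (TATAAA, in 12.9% of promoters), from 75 to 70 bases before the start. Only these exact letters were searched, so variants of the box in any window were not marked. Acta2 held 2 CArG boxes, the element bound by serum response factor, from 134 to 125 and from 84 to 75 bases before the start. They were counted with at most 1 G or C among the 6 central bases, and 8.08% of promoters held such a box. The shear stress element described in human endothelial genes (GAGACC, in 13.7% of promoters) matched once in Acta2, and the core of the hypoxia response element (ACGTG, in 16.6%) matched in none of the 3. In the promoters not shown, Agtr1a held 2 overlapping GC boxes, a TATA box and a GAGACC match, Edn1 a TATA box and an ACGTG match, and the first of 2 Vegfa entries 3 GC boxes. These matches describe the letters of the windows only.

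**Figure D1:**
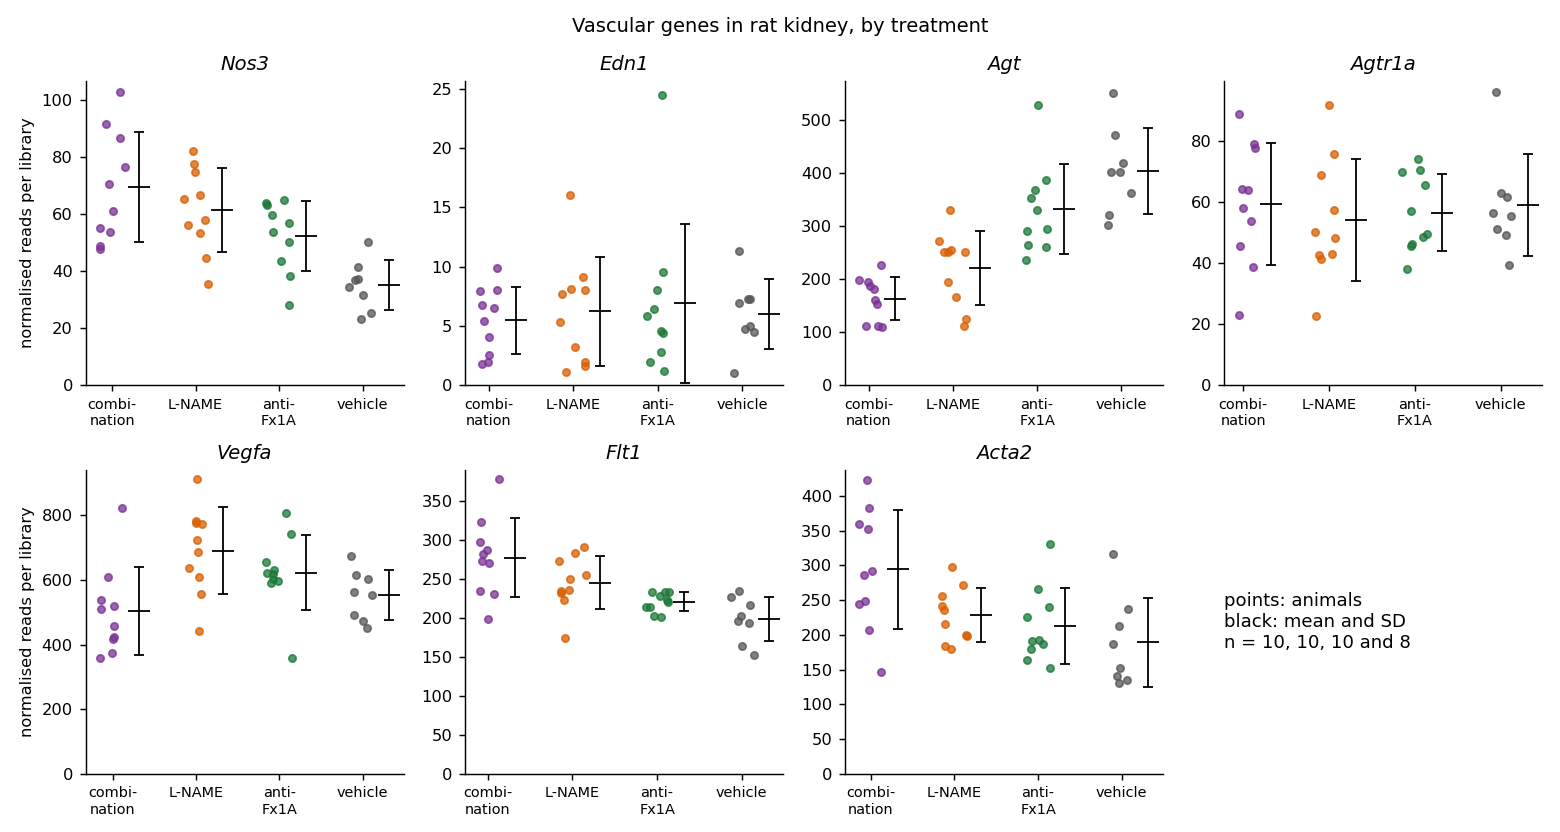
Normalised reads per library of each gene (vertical axes, each from 0) in every animal of the combination, L-NAME, anti-Fx1A and vehicle groups (10, 10, 10 and 8 points), with the mean and SD in black. For Agt all combination animals lie below all vehicle animals, and for Nos3 8 of 10 combination animals lie above the highest vehicle animal.

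Nos3 (ENSRNOG00000009348), the endothelial nitric oxide synthase, was highest in the combination and lowest with vehicle. Its lowest, median and highest values were 47.7, 65.9 and 102.8 normalised reads with the combination, 35.3, 61.8 and 82.3 with L-NAME, 28.03, 55.3 and 64.9 with anti-Fx1A, and 23.2, 35.7 and 50.2 with vehicle. Above the highest vehicle animal lay 8 of 10 combination animals, 8 of 10 L-NAME animals and 6 of 10 anti-Fx1A animals, so each treated group still overlapped vehicle. The mean was 69.5 ± 19.4 normalised reads with the combination, 61.5 ± 14.8 with L-NAME and 52.3 ± 12.3 with anti-Fx1A (SD, n = 10 each), against 35.1 ± 8.64 with vehicle (n = 8).

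These means put the combination at 1.98 times, L-NAME at 1.75 times and anti-Fx1A at 1.49 times vehicle. On the deposited scale Nos3 rose by 0.60 log2 units in the combination (limma, SE 0.11, adjusted p = 8.77e-05). With L-NAME it rose by 0.49 log2 units (limma, SE 0.11, adjusted p = 0.00295). The increase with anti-Fx1A was 0.34 log2 units and did not pass (limma, SE 0.11, adjusted p = 0.121). It passed only when noisier libraries were given less weight (0.38, limma adjusted p = 0.0283). The weights came from the spread of these same data. Vehicle animal 1 had the lowest weight and the highest vehicle Nos3, so less weight on it acted to lower the vehicle mean. That pass is therefore not separate support. Nos3 had 16 to 117 reads per library, and a test of the reads themselves gave larger log2 fold changes, 0.95 in the combination and 0.79 with L-NAME (limma voom, adjusted p = 0.000273 and 0.00609). In the combination Nos3 changed more than 89.3% of the genes tested, without regard to direction. Kidney RNA does not separate more endothelial cells from more transcript per cell, nor, for genes that fell, fewer cells from less RNA per cell.

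**Figure D2:**
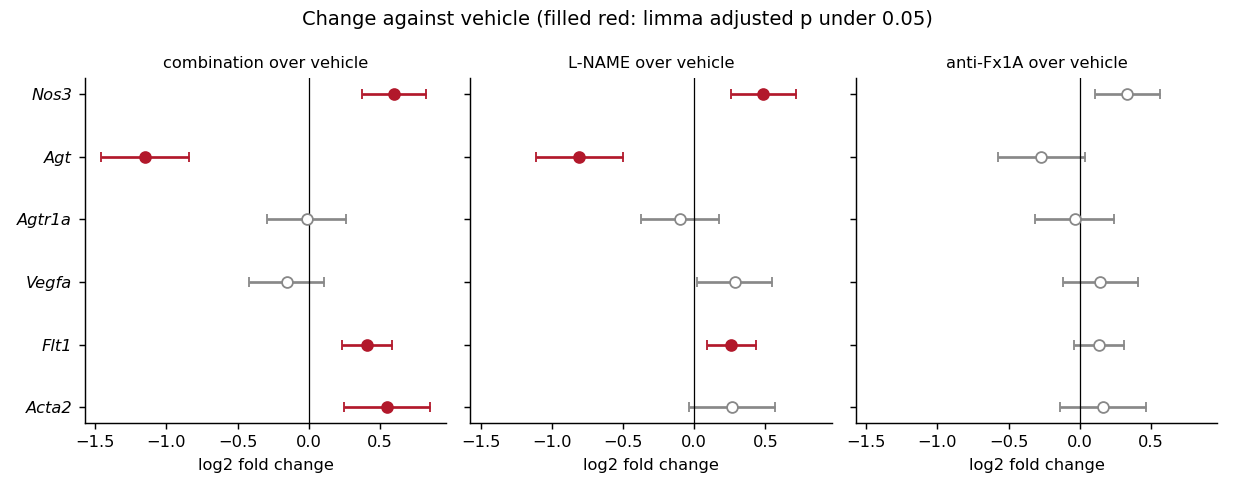
Log2 fold change against vehicle on the deposited scale (horizontal axes) of the 6 genes tested, with 95% confidence intervals, for the combination, L-NAME and anti-Fx1A. Filled red points passed (limma adjusted p under 0.05): 4 genes in the combination, 3 with L-NAME and 0 with anti-Fx1A.

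Agt (ENSRNOG00000018445) encodes angiotensinogen, the precursor of all angiotensin peptides, which the proximal tubule makes within the kidney. It fell with L-NAME and in the combination and had the largest change of the 7 genes in both. Its lowest, median and highest values were 109.0, 170.9 and 225.7 normalised reads with the combination, 112.1, 251.2 and 331.2 with L-NAME, 236.6, 312.9 and 527.8 with anti-Fx1A, and 301.4, 402.1 and 551.7 with vehicle. Below the lowest vehicle animal lay all 10 combination animals, 9 of 10 L-NAME animals and 5 of 10 anti-Fx1A animals. The combination did not overlap vehicle, as was the case for 2.01% of the genes tested that lay lower throughout, nor did it overlap anti-Fx1A, as for 0.151%.

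Mean Agt was 163 ± 41.3 normalised reads with the combination, 221 ± 69.5 with L-NAME and 331.5 ± 84.9 with anti-Fx1A (SD, n = 10 each), against 404 ± 80.9 with vehicle (n = 8). The combination thus stood at 0.404 times, L-NAME at 0.547 times and anti-Fx1A at 0.820 times the vehicle mean. On the log2 scale the combination lay at -1.15 relative to vehicle (limma, SE 0.15, adjusted p = 7.40e-07). L-NAME lay at -0.81 (limma, SE 0.15, adjusted p = 0.000403). With anti-Fx1A it was -0.27 and did not pass (SE 0.15, limma adjusted p = 0.429). In the combination, Agt changed more than 98.8% of the genes tested, and with L-NAME more than 99.1%.

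Agtr1a (ENSRNOG00000018346), the main angiotensin II receptor of rat kidney vessels and tubules, gave the smallest difference from vehicle of the genes tested in each treated group. Its values ran from 22.8 to 88.8 normalised reads with the combination (median 61.1), from 22.6 to 91.9 with L-NAME (median 49.2), from 38.1 to 74.0 with anti-Fx1A (median 53.2) and from 39.2 to 96.02 with vehicle (median 56.0). All groups overlapped over most of their range. The log2 fold change against vehicle was -0.015 in the combination (95% interval -0.29 to 0.26), -0.10 with L-NAME (-0.38 to 0.18) and -0.04 with anti-Fx1A (-0.31 to 0.24). The limma adjusted p was 0.945 in the combination, 0.666 with L-NAME and 0.943 with anti-Fx1A. Each library held 26 to 127 Agtr1a reads, and the deposited scale is compressed at such counts. On the reads themselves the log2 fold change was -0.09 in the combination, -0.24 with L-NAME and -0.10 with anti-Fx1A (limma voom). The SE there was 0.22, 0.23 and 0.22 in that order, against 0.14 on the deposited scale. Differences within the intervals above, or within the wider margins of the reads, were not detectable.

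Edn1 (ENSRNOG00000014361) encodes endothelin-1, a vasoconstrictor peptide that nitric oxide is known to restrain. It had 1 to 25 reads per library, and its mean of 5.06 on the deposited scale lay below the limit of 5.32 for testing. Its lowest, median and highest values were 1.74, 5.95 and 9.86 normalised reads with the combination, 1.13, 6.51 and 16.1 with L-NAME, 1.18, 5.18 and 24.5 with anti-Fx1A, and 1.04, 5.97 and 11.3 with vehicle. The groups overlapped almost entirely, and the value of 24.5 belonged to anti-Fx1A animal 10. With no filter on low values, its log2 fold change against vehicle was -0.03 in the combination, -0.01 with L-NAME and 0.01 with anti-Fx1A (SE 0.13 each, lowest limma adjusted p = 0.924). On the reads themselves it was -0.15 in the combination, -0.12 with L-NAME and, with the opposite sign, -0.05 with anti-Fx1A (limma voom, SE 0.46 each). At this depth no difference of Edn1 was detectable.

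Vegfa (ENSRNOG00000019598) encodes vascular endothelial growth factor A and had the most reads of the 7 genes. Its lowest, median and highest values were 358.5, 484.4 and 821.9 normalised reads with the combination, 440.4, 705.2 and 913.2 with L-NAME, 357.0, 619.7 and 806.8 with anti-Fx1A, and 451.2, 559.2 and 675.2 with vehicle. The single treatments lay mostly above vehicle and the combination mostly below it: 8 of 10 L-NAME animals and 9 of 10 anti-Fx1A animals exceeded the vehicle median, and 8 of 10 combination animals were under it. The mean was 503 ± 136 normalised reads with the combination, 689.8 ± 135 with L-NAME and 622 ± 116 with anti-Fx1A (SD, n = 10 each), against 554 ± 77.6 with vehicle (n = 8).

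Vegfa was called in none of the comparisons with vehicle. Its log2 fold change, with an SE of 0.13 in each case, was -0.15 in the combination (limma adjusted p = 0.362), 0.29 with L-NAME (limma adjusted p = 0.137) and 0.15 with anti-Fx1A (limma adjusted p = 0.670). The combination was 0.44 log2 units below L-NAME (SE 0.12, limma adjusted p = 0.0592), at 0.729 times its mean, and 9 of 10 combination animals lay under the L-NAME median. It was 0.30 log2 units below anti-Fx1A (SE 0.12, limma adjusted p = 0.0767). Without the 3 libraries that stood apart, both differences passed, at -0.50 against L-NAME (limma adjusted p = 0.00276) and -0.38 against anti-Fx1A (limma adjusted p = 0.00772). L-NAME against vehicle passed there too (0.35, limma adjusted p = 0.0402). The 3 libraries were picked from the spread of these same data. L-NAME animal 25 and anti-Fx1A animal 10 among them held the lowest Vegfa of their groups, so leaving them out raised the means of both groups. These passes are therefore not separate support.

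Single animals also decided the call of Vegfa against L-NAME. It passed without anti-Fx1A animal 10, L-NAME animal 25 or 28, or combination animal 30 or 36, with log2 fold changes from -0.52 to -0.44 and limma adjusted p from 0.0126 to 0.0490. Anti-Fx1A animal 10 is in neither of these groups, and leaving it out kept the log2 fold change at -0.44 with an SE of 0.11. Against anti-Fx1A Vegfa passed with library weights (-0.32, limma adjusted p = 0.0265). It also passed without anti-Fx1A animal 10 (-0.38, limma adjusted p = 0.0156) or combination animal 36 (-0.38, limma adjusted p = 0.0202). Combination animal 36 held the highest Vegfa value of its group, 821.9 normalised reads. The library weights came from the spread of these same data and were low for L-NAME animal 25 and anti-Fx1A animal 10. The passes with weights are therefore not separate support.

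Flt1 (ENSRNOG00000000940) encodes a receptor for vascular endothelial growth factor A on endothelial cells, whose soluble form binds and withholds the factor. The table gives 1 value for the gene and does not separate these forms. Its lowest, median and highest values were 198.2, 277.4 and 378.3 normalised reads with the combination, 174.2, 242.6 and 290.05 with L-NAME, 201.2, 221.1 and 233.5 with anti-Fx1A, and 152.6, 198.9 and 233.8 with vehicle. Above the highest vehicle animal lay 8 of 10 combination animals, 7 of 10 L-NAME animals and 0 of 10 anti-Fx1A animals. All 10 anti-Fx1A animals, however, exceeded the vehicle median, within a narrow range.

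The mean of Flt1 was 277 ± 50.7 normalised reads with the combination, 245 ± 33.7 with L-NAME and 220.1 ± 12.2 with anti-Fx1A (SD, n = 10 each), against 198 ± 28.6 with vehicle (n = 8). In the combination this mean was 1.399 times that of vehicle, and the rise on the deposited scale was 0.41 log2 units (limma, SE 0.09, adjusted p = 0.000318). With L-NAME the mean was 1.24 times that of vehicle, and the rise on the deposited scale was 0.26 log2 units (limma, SE 0.09, adjusted p = 0.0363). With anti-Fx1A the log2 fold change was 0.14 (SE 0.09, limma adjusted p = 0.496). The call with L-NAME was lost without vehicle animal 1, 3, 7 or 8 or without L-NAME animal 20, 23, 26, 27 or 28 (log2 fold change 0.22 to 0.26, adjusted p 0.0531 to 0.0962). At the same log2 fold change of 0.26 it was also lost without any filter (limma adjusted p = 0.0598) and with only the compared groups in the fit (limma adjusted p = 0.0596).

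Acta2 (ENSRNOG00000058039) encodes smooth muscle α-actin, the contractile actin of vessel walls, pericytes and myofibroblasts. Its lowest, median and highest values were 146.7, 289.2 and 422.9 normalised reads with the combination, 180.03, 226.1 and 298.2 with L-NAME, 152.4, 191.4 and 331.6 with anti-Fx1A, and 131.2, 169.2 and 316.3 with vehicle. In the combination 4 of 10 animals exceeded the highest vehicle animal, which was vehicle animal 1, and 9 of 10 exceeded the vehicle median. All 10 L-NAME animals lay above that median as well, and none above the vehicle range. Mean Acta2 was 294 ± 85.7 normalised reads with the combination, 228 ± 39.2 with L-NAME and 213 ± 54.3 with anti-Fx1A (SD, n = 10 each), against 189 ± 64.5 with vehicle (n = 8). In the combination this mean was 1.56 times that of vehicle, and the rise on the deposited scale was 0.55 log2 units (limma, SE 0.15, adjusted p = 0.00388). The log2 fold changes of 0.26 with L-NAME and 0.16 with anti-Fx1A did not pass (SE 0.15 each, limma adjusted p = 0.242 and 0.673).

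Giving L-NAME on top of the antiserum is addressed by the combination against anti-Fx1A. Agt was lower, at 163 ± 41.3 normalised reads with the combination against 331.5 ± 84.9 with anti-Fx1A (-0.88 log2 units, limma, SE 0.14, adjusted p = 0.000158), and no animal of these groups overlapped. Flt1 was higher, at 277 ± 50.7 with the combination against 220.1 ± 12.2 with anti-Fx1A (0.27 log2 units, limma, SE 0.08, adjusted p = 0.0183), and 8 of 10 combination animals exceeded the whole anti-Fx1A range. Acta2 was higher, at 294 ± 85.7 with the combination against 213 ± 54.3 with anti-Fx1A (0.39 log2 units, limma, SE 0.14, adjusted p = 0.0477). Nos3 did not pass, with a log2 fold change of 0.26 (limma adjusted p = 0.0732), and it passed without combination animal 33 (0.30, adjusted p = 0.0465). Thus 2 of 6 members were higher and 1 lower, where 9.49% and 9.78% of all genes were. Agt was also called at 1.5-fold or more on the deposited log2 scale, where 3.91% of all genes were.

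The call of Acta2 against anti-Fx1A was close to the threshold. It was lost with voom on the reads (0.44, adjusted p = 0.0535), without any filter (0.39, adjusted p = 0.0768) and with only the compared groups in the fit (0.39, adjusted p = 0.0643). It was also lost without vehicle animal 2, 5 or 7, anti-Fx1A animal 9, 11, 12, 14, 16, 17 or 18, L-NAME animal 19, 20, 21, 24 or 28, or combination animal 31, 32, 33, 34, 35, 37 or 38, with log2 fold changes from 0.33 to 0.41 and limma adjusted p from 0.0502 to 0.0979. For Agt and Flt1 in this comparison no single animal left out removed the call.

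**Figure D3:**
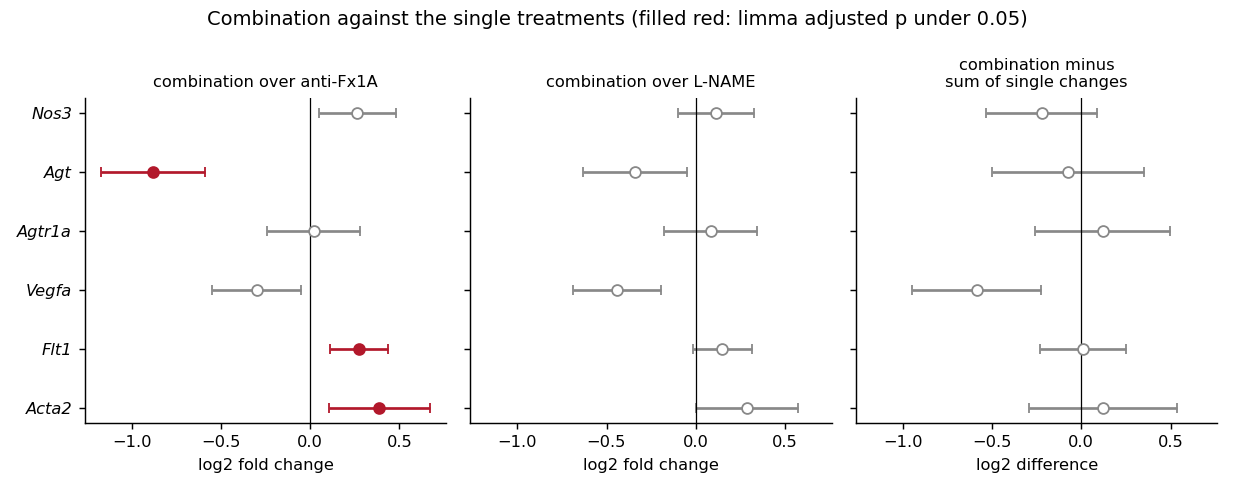
Log2 fold change of the combination over anti-Fx1A and over L-NAME, and the log2 difference between the change in the combination and the sum of the changes with the single treatments (horizontal axes), with 95% confidence intervals for the 6 genes tested. Filled red points passed (limma adjusted p under 0.05): Agt, Flt1 and Acta2 over anti-Fx1A, and none in the other panels, where Vegfa lies farthest from 0.

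Giving the antiserum on top of nitric oxide blockade is addressed by the combination against L-NAME. Limma called 0 of 6 members, where 0.833% of all genes were higher and 0.365% lower, and voom called 0. An unadjusted p under 0.05 was reached by 3, namely Vegfa, Agt and Acta2. The shares above are for adjusted p, and the share of all genes at the unadjusted limit is not given here. For Agt, every one of the 10 combination animals was under the median of L-NAME. Its level was lower by 0.34 log2 units in the combination, which did not pass (limma adjusted p = 0.233, SE 0.14). It passed once the libraries that stood apart were dropped (-0.43, limma adjusted p = 0.0473) or library weights were used (-0.41, limma adjusted p = 0.0488). Both the choice of libraries and the weights came from the spread of these same data. L-NAME animal 25 had a low weight and the lowest Agt of its group. Dropping it or giving it less weight therefore acted to raise the L-NAME mean, and neither pass is separate support. Acta2 was 0.29 log2 units higher (SE 0.14, limma adjusted p = 0.314), Flt1 0.15 higher (SE 0.08, limma adjusted p = 0.373) and Nos3 0.11 higher (SE 0.11, limma adjusted p = 0.630).

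L-NAME alone was also set against anti-Fx1A alone. Limma called 0 of 6 members, where 0.135% of all genes were higher and 0.246% lower with L-NAME, and voom called 0. At an unadjusted limma p under 0.05 there was 1 member, Agt, and the share of all genes at that limit is not given here. Mean Agt was 221 ± 69.5 normalised reads with L-NAME and 331.5 ± 84.9 with anti-Fx1A (-0.54 log2 units, limma, SE 0.14, adjusted p = 0.0958), and 9 of 10 L-NAME animals lay under the anti-Fx1A median. The difference passed without L-NAME animal 20 (-0.60, limma adjusted p = 0.0406), which held the highest Agt value with L-NAME. The order of the groups for Agt was therefore combination, L-NAME, anti-Fx1A and vehicle from low to high, and no neighbours in it passed in the limma fit of all 38 animals without library weights.

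Whether the changes of the single treatments added up in the combination was tested with the interaction of both. The test carries the lower antiserum dose of the combination. Limma called 0 of 6 members and 0% of all genes, and voom called 0 members. At an unadjusted limma p under 0.05 there was 1 member, Vegfa, again without the share of all genes at that limit. For Vegfa the combination lay 0.59 log2 units under the sum of the single changes (95% interval -0.95 to -0.22, limma adjusted p = 0.293), with means of 503 in the combination, 689.8 with L-NAME, 622 with anti-Fx1A and 554 normalised reads with vehicle. Without the libraries that stood apart this was -0.73 and passed (limma adjusted p = 0.0251). Those libraries were picked from the spread of these same data. L-NAME animal 25 and anti-Fx1A animal 10 among them held the lowest Vegfa of their groups, so leaving them out raised both single-treatment means. The share of all genes passing in that fit is not given here, and the pass is not separate support. For Nos3 the difference from the sum was -0.22 (-0.53 to 0.09), for Agt -0.07 (-0.50 to 0.35), for Acta2 0.12 (-0.29 to 0.54), for Agtr1a 0.12 (-0.26 to 0.50) and for Flt1 0.01 (-0.23 to 0.25).

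**Figure D4:**
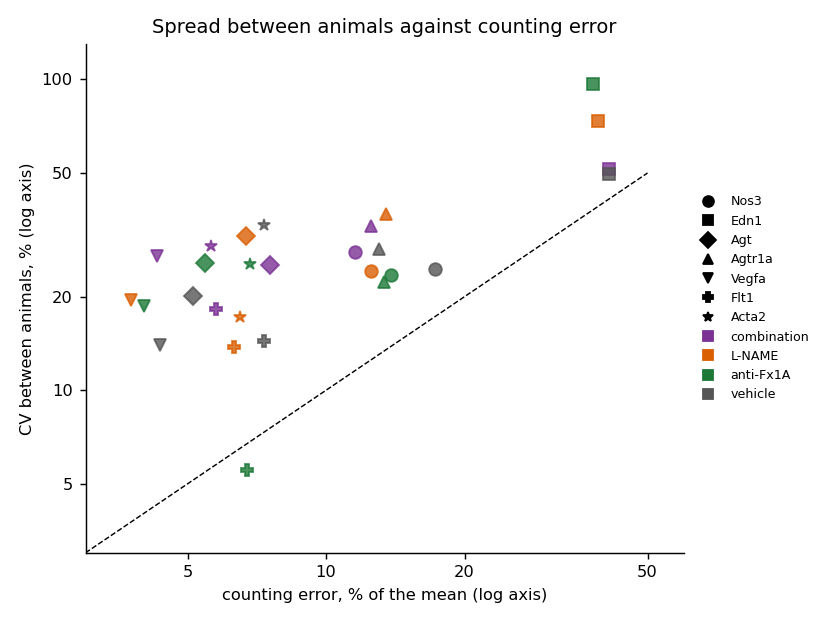
Coefficient of variation between animals of a group (vertical axis, percent, log scale) against the counting error expected from the mean reads (horizontal axis, percent, log scale), for 7 genes in 4 groups. The dashed line marks equality; Edn1 lies at the right, and Flt1 in the anti-Fx1A group is the only point under the line.

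The members also differed in how far animals of a group spread. For Vegfa the coefficient of variation was 27.1% in the combination, 19.5% with L-NAME, 18.7% with anti-Fx1A and 14.01% with vehicle, where counting alone would give 3.76 to 4.36%. For Flt1 it was 18.3% in the combination, 13.7% with L-NAME, 5.54% with anti-Fx1A and 14.4% with vehicle, and the anti-Fx1A value was under the 6.73% expected from counting. Edn1 varied by 51.4% in the combination, 73.7% with L-NAME, 97.0% with anti-Fx1A and 49.6% with vehicle, with 38.1 to 41.3% expected from counting. The spread of these genes was not tested between groups.

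Pooled over the 4 groups, the members moved together only weakly across animals. After the group means were taken off, Pearson's r over 38 animals ran from -0.31 to 0.54 for the 21 pairs. Agtr1a and Vegfa had the highest, r = 0.54 (permutation p = 0.00117, adjusted over 21 pairs 0.0246), and it was 0.46 without the 2 animals farthest from the median of Agtr1a. Spearman's rho was 0.43 and did not pass after adjustment (permutation p = 0.0106, adjusted 0.223). Within groups this r was 0.62 in the combination, 0.61 with L-NAME, 0.66 with anti-Fx1A and -0.03 with vehicle. No other pair passed on either measure, and none of 14 relations of the members with depth or with the reads taken by the 10 top genes passed on both. Single groups differed in sign. For Agtr1a and Acta2 r was 0.33 in the combination, -0.47 with L-NAME, -0.87 with anti-Fx1A and 0.23 with vehicle. For Agtr1a and depth it was -0.16, -0.55, -0.47 and 0.88 in that order. These examples were picked because they hold the largest single-group r among the 21 pairs and the 14 relations. Each single-group r rests on 8 or 10 animals. Among vehicle animals the deepest library, animal 3, held the highest Agtr1a, and the shallowest, animal 4, the lowest. These values of single groups were not tested.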

How the data were processed

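Per the labels' protocols, 500 ng of kidney RNA went into QuantSeq FWD 3′ end libraries, 1 for each of the 38 samples. Tools credited to the submitters' processing notes are Salmon 1.4.0 and edgeR 3.40.2, with DESeq2 listed beside them, and no role is given for any. The sources used here do not give the genome build or annotation. The deposited table holds log2 values that its name calls variance-stabilised, and its values follow that curve, for 30207 Ensembl identifiers and 38 animals. The 2 rows that name no gene were left out. Samples were grouped by their titles, and columns were matched by library name.

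The lowest value, 4.32, is shared by all libraries and stands for 0 reads. Inverting the stabilising curve from it gave normalised reads that fall on whole reads once each library is scaled by its own step. All values up to 10000 reads came within 0.05 of a whole read, and the sums gave the depth. No libraries were alike within sampling noise (lowest chi-square per gene 4.01 over 703 pairs). Counting errors cover counting only.

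Genes averaging at least 5.32, which is 1 log2 unit over that value, were kept, which left 12599. The 4 group means were fitted with limma 3.58.1 in R 4.3.3 (eBayes with trend and robust estimation), and 7 comparisons were adjusted by Benjamini-Hochberg over all genes tested, at 0.05. The fit was tested on simulated data. Depth and correlations were compared by permutation, exactly for comparisons with vehicle and by 100000 resamples for the others; correlations were permuted within groups. Recovered reads were tested with voom on the authors' size factors.

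The 7 members and the gene lists were chosen with earlier results of these data known. All 7 members are named in the text. The reference table pairs 0 of the deposited identifiers with a symbol, so the names of the members are those given with their identifiers, and the further pathway lists, the marker lists and the search for genes of like pattern were not run. Promoters were matched by symbol to RefSeq sequences (GRCr8). Alternatives were median-centred or quantile-normalised libraries, no filter or a filter at 2 log2 units, no trend and no robust estimation, only the groups compared, library weights, voom, the reads taken by the 10 top genes as covariate, a fit without 3 libraries, fits without each single animal, and a 1.5-fold threshold.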

Additional observations from a re-analysis of the deposited data

Results flagged for a closer look

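Vegfa in anti-Fx1A animal 10 lay far below the other 9 animals of its group, at 8.63 on the deposited log2 scale (357 normalised reads) against 9.30 (590.8) in the nearest animal. Flt1 in L-NAME animal 25 lay below the rest of its group, at 7.73 (174.2 normalised reads) against 8.03 (223) in the nearest. Both were marked because the gap to the nearest animal was 0.612 and 0.476 of the range of the group, above the limit of 0.466 for 10 animals. Of 28 groups of values examined 2 were marked, where chance marks about 1 in 20, or 1.4. Both animals are among the 3 libraries with the lowest weights.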

How the results depend on the processing

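Each gene tested was refitted under 10 alternatives and with each of the 38 animals left out. Of the 10 calls among the members, 8 were kept in every one of these fits. The exceptions were Flt1 with L-NAME against vehicle and Acta2 in the combination against anti-Fx1A. Of the 32 differences of these genes not called, 8 passed in at least 1 fit. Edn1 was refitted only on the reads.

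Asking for a change of 1.5-fold as well, on the deposited log2 scale, which is compressed and gives smaller folds than the ratios of means, left 2 members called in the combination against vehicle (10.9% of all genes), 1 with L-NAME against vehicle (2.97%) and 1 in the combination against anti-Fx1A (3.91%). With library weights 1 member was called for anti-Fx1A against vehicle and 2 for the combination against L-NAME. For the combination against L-NAME, quantile normalisation and the covariate each gave 1, the fit without 3 libraries gave 2, and leaving out single animals gave 0 to 1. Leaving out single animals gave 0 to 1 for L-NAME against anti-Fx1A. The interaction had 1 call without the 3 libraries. Outside the 1.5-fold rule, the share of all genes called is not given for these fits. Their counts therefore do not set the members against all genes. The causes were not tested.

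Directions changed only for differences near 0, none of them called. Agtr1a in the combination against vehicle had a log2 fold change of 0.007182 with median-centred libraries and 0.01994 with library weights, and from -0.06412 to 0.06652 with single animals left out. With anti-Fx1A against vehicle it ran from -0.08421 to 0.03731 with single animals left out. In the combination against anti-Fx1A it was -0.01593 without the 3 libraries and ran from -0.02859 to 0.102 with single animals left out. With L-NAME against anti-Fx1A it was 0.00183 with library weights and ran from -0.126 to 0.00947 with single animals left out. Flt1 in the interaction was -0.006545 without the 3 libraries and ran from -0.03503 to 0.05606 with single animals left out. Edn1 on the reads was -0.04959 for anti-Fx1A against vehicle and 0.021 for the interaction.

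No paired analysis was possible because the animal numbers of the labels are not shared between groups. Depth limits Edn1 most, with at most 25 reads per library.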
